A study of Ovis aries with 20 samples.

Results

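Bulk RNA-seq of fetal sheep pancreas was used to ask whether the CFTR−/− organ at 80 days of gestation resembled the WT organ at 65 days, as it might if its development were delayed. Libraries were chosen by their labels of genotype and age alone, as the 2 CFTR−/− animals at 80 days and the 2 WT animals at 65 days, which are 4 of the 20 libraries in the count table. The study collected pancreas from WT and CFTR−/− fetuses between early gestation and term, with 2 animals of each genotype at 65, 80, 100, 120 and 147 days in this table. The other early groups, WT at 80 days and CFTR−/− at 65 days, served as reference, and older WT libraries placed each animal on the course of WT development.

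The sheep of the study were American Romney by breed. WT fetuses came from the breeding of ewes whose estrus had been synchronized, and carried no engineered change. The CFTR−/− fetuses of 65 and 80 days were clones produced by somatic cell nuclear transfer, and the donor cells were fetal fibroblasts of 1 male line in which CFTR had been disrupted in exon 2. Both CFTR−/− groups of these ages were thus male copies of 1 genome, while the sex of the WT fetuses was not given in the sources used here. Between CFTR−/− at 80 days and WT at 65 days the effects of age, genotype, cloning and donor line cannot be told apart. Both animals of each group carry animal labels with a common stem, so they may have shared a pregnancy, which the labels do not state. If they did, p-values measure a spread that may be smaller than that between pregnancies.

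CFTR is a chloride and bicarbonate channel in the apical membrane of duct cells, where it drives fluid secretion that flushes digestive enzymes out of the gland. In the fetus, branching epithelium gives rise to duct, acinar and endocrine cells, while the surrounding mesenchyme, vessels and nerves thin out relative to the growing acini. Loss of CFTR in several species leads to plugged ducts, loss of acini and fibrosis.

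Total counts were 61851866 and 63946452 in the WT animals at 65 days and 59721291 and 64947692 in the CFTR−/− animals at 80 days, against a range of 23171353 to 64947692 over all 20 libraries. After edgeR's TMM normalization, 1 count was worth 0.0123 and 0.0131 CPM (counts scaled to a common library size) in the former and 0.0132 and 0.0131 CPM in the latter. Reads of the mitochondrial genome made up 1.03% and 1.41% of the WT libraries at 65 days and 1.64% and 1.22% of the CFTR−/− libraries at 80 days. Each pair of CPM values below gives animal 1 before animal 2.

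The targeted gene, CFTR (chr4:50644000-50864925 in Oar_v4.0), had 30.3 and 34.6 CPM in WT at 65 days, 27.7 and 30.1 in WT at 80 days, 44.5 and 45.8 in CFTR−/− at 65 days and 30.6 and 43.9 in CFTR−/− at 80 days. CFTR−/− animal 1 at 80 days lay within the range of WT at 65 days and animal 2 above it, so these groups overlapped, while both lay above WT at 80 days, animal 1 by little. The log2 fold change of CFTR−/− at 80 days over WT at 65 days was 0.20 (SE 0.36), with an adjusted p of 1 by edgeR after Benjamini-Hochberg correction. Leaving out CFTR−/− animal 2 gave -0.08. Reads counted over the whole gene do not show whether exon 2 was disrupted, so the transcript level does not check the genotype labels. One animal name occurs in the labels both of the first WT library of 65 days and of the second CFTR−/− library of 100 days, and which of them it fits could not be settled. The 2 libraries lay 1.89 apart in the measure of distance used below, against 0.809 between the WT animals at 65 days.

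Between CFTR−/− at 80 days and WT at 65 days, 0 of 19522 genes (0%) were called by edgeR's quasi-likelihood F-test. A call needed an adjusted p no higher than 0.01 and a log2 fold change of 0.58 or more in either direction, and the lowest adjusted p (Benjamini-Hochberg, edgeR) was 0.955. Without adjustment, 471 genes (2.41%) had a p below 0.05, 248 of them higher and 223 lower in CFTR−/−. The Wald test of DESeq2 gave 6 calls and the likelihood ratio test of edgeR gave 3. Most differences were small: 74.9% of genes lay within 1.5-fold, the median absolute log2 fold change was 0.24 and the median 0.01. In CPM, both CFTR−/− animals lay above both WT animals for 3095 genes (15.9%) and below both for 3053 (15.6%).

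Against WT at the same age, 80 days, the same CFTR−/− animals gave a similar count. The quasi-likelihood test of edgeR gave 0 calls (0%) and 486 genes (2.49%) with an unadjusted p below 0.05, against 7 called by DESeq2 and 4 by the likelihood ratio test, and a median absolute log2 fold change of 0.25. Groups did not overlap for 2952 genes higher in CFTR−/− (15.1%) and 3080 lower (15.8%). The 2 comparisons share the CFTR−/− animals, so they are not independent of each other. WT at 80 against 65 days itself gave 0 calls by this test and 343 genes at an unadjusted p under 0.05, with 2 calls each by DESeq2 and the likelihood ratio test, and a median absolute log2 fold change of 0.25. The WT ages did not overlap for 7411 genes (38.0%), more than the 6148 (31.5%) and 6032 (30.9%) of CFTR−/− at 80 days against WT at 65 and 80 days, while its count at an unadjusted p under 0.05 was the smaller. With 2 animals in a group, an exact permutation test cannot give a two-sided p below 0.33, and a count of 0 does not show that the groups were alike. Without any difference, groups would separate in a share of 0.33 of genes, and p would fall under 0.05 in a share of 0.05. CFTR−/− at 80 days stayed below both shares against WT of either early age, so neither count is read as a sign of differences. The WT ages passed only the former share.

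CFTR−/− animals at 65 days differed more from both WT ages. Against WT at 65 days the median absolute log2 fold change was 0.43 and 1928 genes had an unadjusted p under 0.05, with 0 called by edgeR's quasi-likelihood test, 43 by DESeq2 and 8 by the likelihood ratio test. Against WT at 80 days these values were 0.43, 2417, 0, 69 and 6. The 0 depends on the libraries in the fit, since with only the 4 libraries compared the quasi-likelihood test called 123 genes against WT at 65 days and 88 against WT at 80 days. Between CFTR−/− at 80 and 65 days they were 0.36, 1189, 0, 4 and 0, and between CFTR−/− at 80 days and WT at 100 days 0.35, 1153, 0, 25 and 6. For the difference between the genotypes in their step from 65 to 80 days, the interaction term in edgeR's quasi-likelihood fit gave 0 calls and 481 genes with an unadjusted p below 0.05, against 3 called by DESeq2 and 2 by the likelihood ratio test.

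Distance between libraries was taken as the root mean square difference in log2 CPM (prior count 2) over all 19522 genes. From the CFTR−/− libraries at 80 days to the WT libraries at 65 days it had a median of 0.939 over 4 pairs (range 0.877 to 0.996), and to those of WT at 80 days a median of 1.01 (range 0.754 to 1.06). The animals of a group were themselves 0.809 apart in WT at 65 days, 0.932 in WT at 80 days and 0.992 in CFTR−/− at 80 days. WT at 65 and 80 days lay a median of 0.893 apart. The CFTR−/− animals at 80 days were therefore about as far from either WT age as from each other, and the ranges to both WT ages overlapped. Taken instead as a median absolute difference, which large differences in few genes do not sway, the order was the reverse, at 0.337 to WT at 65 days and 0.328 to WT at 80 days. The order also turned when CFTR−/− animal 2 was left out, at 0.904 and 0.871, or WT animal 1 of 80 days, at 0.939 and 0.905.

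The CFTR−/− animals at 80 days differed in which WT age was nearer. Animal 1 lay a mean of 0.904 from WT at 65 days and 0.871 from WT at 80 days, and its nearest WT library was animal 2 at 80 days, at 0.754. Animal 2 lay 0.971 from WT at 65 days and 1.05 from WT at 80 days, and its nearest WT library was animal 2 at 65 days, at 0.946. The means to WT at 100 days were 1.05 and 1.24. Animal 1, however, lay 0.856 from WT animal 2 of 100 days, nearer than to either WT library of 65 days, at 0.877 and 0.932, and 1.25 from WT animal 1 of 100 days. CFTR−/− animals at 65 days lay farther from both early WT ages, at 1.13 and 1.09 from WT at 65 days and 1.19 and 1.17 from WT at 80 days.

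**Figure D1:**
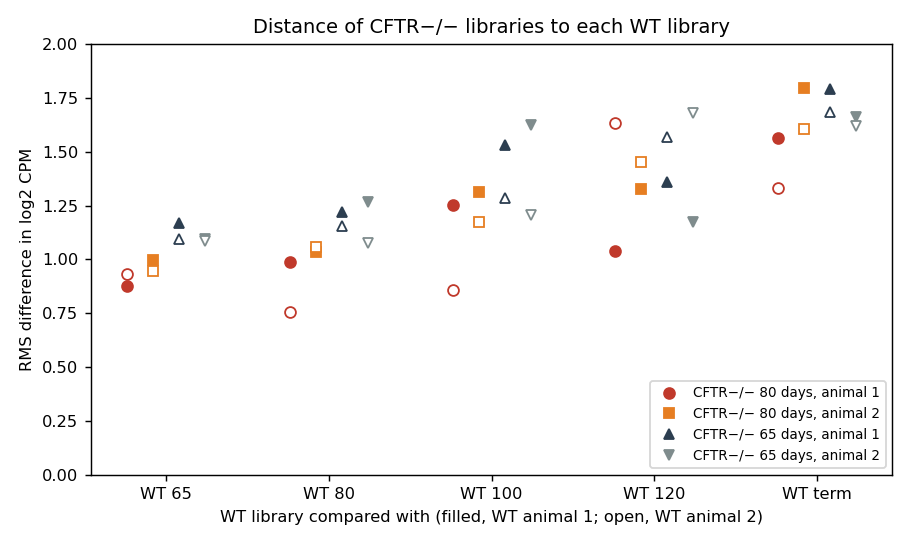
Root mean square difference in log2 CPM (vertical axis) of each early CFTR−/− library to each WT library, grouped by WT age in days (horizontal axis), with filled marks for WT animal 1 and open marks for WT animal 2. CFTR−/− animals at 80 days sat between 0.877 and 0.996 from WT at 65 days and between 0.754 and 1.06 from WT at 80 days.

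An age score was built from WT libraries at 65, 100 and 120 days, as the mean log2 CPM of 200 genes higher at the later ages minus that of 200 genes lower there. It was scaled to 0 at WT 65 days and 1 at the mean of WT 100 and 120 days, so the scores of these WT groups are set by the choice of genes. WT at 80 days and all CFTR−/− libraries had no part in that choice. WT animals at 80 days scored 0.35 and 0.40, CFTR−/− animals at 80 days 0.40 and 0.14, and CFTR−/− animals at 65 days 0.21 and 0.09. The mean of CFTR−/− at 80 days was 0.27 ± 0.18 (SD, n = 2) and that of WT at 80 days 0.38. CFTR−/− animal 1 thus scored just above both WT animals of its age, and animal 2 scored between the WT animals of 65 and 80 days. With genes chosen on WT at 65 and 100 days only, CFTR−/− animals at 80 days scored 0.44 and 0.05 and those at 65 days -0.09 and -0.12, the latter below both WT animals of 65 days.

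Both sets of genes behind the score showed this difference between the CFTR−/− animals. The genes higher at later WT ages had a mean log2 CPM of 3.42 and 3.30 in WT at 65 days, 3.90 and 3.98 in WT at 80 days, and 4.06 and 3.51 in CFTR−/− at 80 days. The genes lower at later WT ages had means of 4.47 and 4.50, 3.88 and 3.80, and 3.87 and 4.17 in the same groups. In CFTR−/− at 65 days the means were 3.303 and 3.292 for the former set and 3.76 and 4.12 for the latter. The scores of CFTR−/− at 65 days above 0 thus came from the latter set, which includes endocrine genes such as CHGA and KCNK16. At 100 days the CFTR−/− animals scored 0.65 and 0.21, against 0.92 and 0.84 in WT, and at 120 days 1.06 and 0.97 against 1.16 and 1.08, where WT of both ages had a part in choosing the genes. At term, where neither had, they scored 1.49 and 1.53 against 1.64 and 1.28. The second CFTR−/− library of 100 days, which has the doubtful animal name, had a total of 35973948 counts and lay 1.65 from its nearest neighbour among all libraries.

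**Figure D2:**
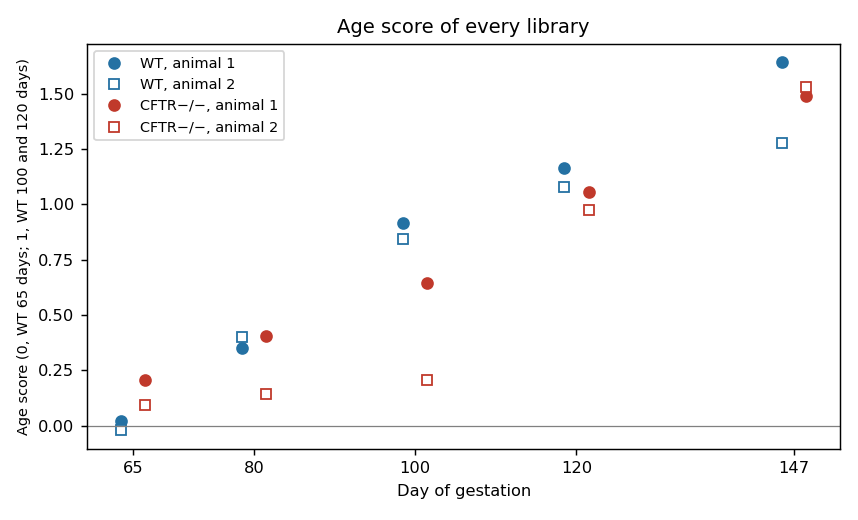
Age score (vertical axis; 0 is the mean of WT at 65 days and 1 that of WT at 100 and 120 days) against day of gestation (horizontal axis) for every library, with 2 animals per genotype and age. CFTR−/− animals at 80 days scored 0.40 and 0.14, against 0.35 and 0.40 in WT at 80 days.

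Gene by gene, the mean log2 CPM of CFTR−/− at 80 days lay nearer to WT at 65 days than to WT at 80 days for 10198 of 19522 genes (52.2%). Taken alone, animal 1 lay nearer to WT at 65 days for 39.2% of genes and animal 2 for 58.7%. Among the 72 genes that differed most between the WT ages (unadjusted p of at most 0.01), whose WT difference is a matter of their choice, 31 (43.1%) lay nearer to WT at 65 days. Animal 1 gave 31.9% and animal 2 55.6% of these 72. On a scale of 0 at WT 65 days and 1 at WT 80 days, their median position in CFTR−/− at 80 days was 0.58. The 33 of them that were higher at 80 days in WT stood at a median of 1.395 and 1.006 log2 units over WT at 65 days in the CFTR−/− animals, and the 39 that were lower in WT at -1.63 and -0.93. In CFTR−/− at 65 days the same medians were 1.29 and 1.27, and -1.04 and -0.97. These genes were chosen for a large difference between the WT ages, so nothing is read from a position between them.

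Genes were named by a fixed rule, as the 10 per direction with the smallest p among those of at least 1.5-fold whose groups did not overlap. AOX1, an aldehyde oxidase (chr2:201799725-201869143), had 0.957 and 1.43 CPM in WT at 65 days, 2.22 and 1.82 in WT at 80 days and 5.70 and 7.33 in CFTR−/− at 80 days. CCL26, a chemokine that attracts eosinophils (chr24:33931038-33935665), had 1.68 and 3.74, 11.1 and 9.14, and 28.3 and 16.0 CPM in the same groups. Both CFTR−/− animals lay above all 4 early WT animals for both genes. CFTR−/− at 65 days had 3.14 and 6.39 CPM of AOX1 and 18.0 and 4.26 of CCL26. Their log2 fold changes over WT at 65 days were 2.45 (SE 0.48) and 3.03 (SE 0.61), and over WT at 80 days 1.69 (SE 0.45) and 1.13 (SE 0.55). EdgeR's Benjamini-Hochberg adjusted p against WT at 65 days was 0.955 for AOX1, CCL26, LOC101108147 and LOC101102411, and 1 for every other gene given below in that comparison. DESeq2 called AOX1 and CCL26, and the likelihood ratio test CCL26. For CCL26 the value over WT at 65 days ranged from 2.55 when CFTR−/− animal 1 was left out to 3.72 when WT animal 2 was.

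SP110, which encodes a nuclear body protein induced by interferon, had 4.10 and 3.74 CPM in WT at 65 days, 6.09 and 7.41 in WT at 80 days and 11.5 and 14.3 in CFTR−/− at 80 days. Over WT at 65 days SP110 had a log2 fold change of 1.72 (SE 0.39), and in CFTR−/− at 65 days it stood at 10.5 and 8.60 CPM. The locus LOC101114941 had 7.07 and 4.54 CPM in WT at 65 days, 5.62 and 5.02 in WT at 80 days and 14.0 and 23.2 in CFTR−/− at 80 days (log2 fold change over WT at 65 days 1.68, SE 0.42), beside 13.8 and 14.8 in CFTR−/− at 65 days. Both genes were thus higher in the CFTR−/− animals than in WT of either early age.

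Other genes of the rule were higher in CFTR−/− at 80 days than in WT at 65 days and closer to WT at 80 days. The locus LOC101108147 had 0.884 and 0.601 CPM in WT at 65 days, 4.18 and 3.84 in WT at 80 days and 4.90 and 3.87 in CFTR−/− at 80 days (log2 fold change over WT at 65 days 2.55, SE 0.53). KRT77, a keratin of a family with similar copies whose reads the counting may have split, had 10.1 and 7.69, 28.1 and 26.5, and 38.0 and 29.0 CPM (1.91, SE 0.47). LOC101112585 had 31.3 and 31.5, 44.5 and 50.8, and 83.1 and 59.1 CPM (1.18, SE 0.29). For LOC101108147 the CFTR−/− animals overlapped WT at 80 days, while for the other genes of this group they lay above it. In CFTR−/− at 65 days LOC101108147 was already at 5.01 and 5.49 CPM, KRT77 at 24.9 and 21.3 and LOC101112585 at 36.9 and 43.7, each above WT of that age, so the levels at 80 days are not read as those of an age.

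GCSAML was near 0 in WT, at 0 and 0.0784 CPM at 65 days and 0 counts in both animals at 80 days, against 1.28 and 3.55 CPM in CFTR−/− at 80 days and 2.12 and 2.11 CPM in CFTR−/− at 65 days. It was at least 61.9-fold higher in CFTR−/− than in WT at 80 days, or at least 32.8-fold without CFTR−/− animal 2, taking 3 counts per library as the most that a count of 0 allows. It was low in every early library, and such a bound covers counting error only. LY6D, a surface protein of some epithelial and lymphoid cells, had 2.15 and 0.784 CPM in WT at 65 days, 2.85 and 0.770 in WT at 80 days and 4.03 and 68.9 in CFTR−/− at 80 days. For LY6D the log2 fold change over WT at 65 days, 4.63 (SE 1.14), rested on CFTR−/− animal 2 and was 1.46 without it, and CFTR−/− at 65 days had 16.3 and 10.1 CPM.

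Among genes lower in CFTR−/− at 80 days, the locus LOC101102411 (chr13:56751212-56752933) had 31.4 and 48.7 CPM in WT at 65 days and 27.4 and 36.9 in WT at 80 days, but 0 counts in both CFTR−/− animals at 80 days. In CFTR−/− at 65 days it had 0.433 and 0 CPM. It was at least 1015-fold lower in CFTR−/− at 80 days than in WT at 65 days and at least 815-fold lower than in WT at 80 days, on a floor of 3 counts per library (0.0395 CPM). DESeq2 and the likelihood ratio test called it in both comparisons. At later ages no CFTR−/− library was at 0, and the genotypes overlapped at 100 days and at term but not at 120 days, where both CFTR−/− animals were lower. LOC101102411 had 13.9 and 29.7 CPM in CFTR−/− against 9.52 and 25.6 in WT at 100 days, 2.83 and 0.654 against 32.5 and 7.15 at 120 days, and 5.62 and 0.242 against 2.17 and 35.9 at term.

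The nearest gene by coordinates, GNAS (chr13:56686378-56740118), ends 11093 bases before LOC101102411 and was looked up after that locus had been seen. GNAS encodes the stimulatory G protein alpha subunit and is imprinted. It had 3503 and 3007 CPM in WT at 65 days, 3698 and 3353 in WT at 80 days, 1506 and 1962 in CFTR−/− at 65 days and 2515 and 2337 in CFTR−/− at 80 days. GNAS was lower in each CFTR−/− animal than in each early WT animal, with a log2 fold change against WT at 65 days of -0.42 (SE 0.44). On the other side, LOC105606221 had 4.85 and 5.15 CPM in WT at 65 days and 9.56 and 5.79 in CFTR−/− at 80 days.

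SCNN1B, the beta subunit of the epithelial sodium channel, had 2.87 and 2.37 CPM in WT at 65 days, 0.882 and 1.20 in WT at 80 days and 0.0924 and 0.131 in CFTR−/− at 80 days (log2 fold change against WT at 65 days -4.53, SE 1.04). NXPH1, a secreted ligand of neurexins, had 2.97 and 2.14, 3.35 and 3.74, and 0.436 and 0.0655 CPM (-3.35, SE 0.80, and -5.26 or -2.54 without CFTR−/− animal 1 or 2). Both were lower in CFTR−/− than in either early WT group, and both were also low in CFTR−/− at 65 days, at 0.656 and 0.171 CPM for SCNN1B and 0.198 and 0.0504 CPM for NXPH1. LOC106991500 had 8.57 and 6.94 CPM in WT at 65 days, 8.47 and 5.44 in WT at 80 days and 2.76 and 2.75 in CFTR−/− at 80 days (-1.49, SE 0.40), with 1.34 and 2.29 in CFTR−/− at 65 days. LOC105610544 had 2.54 and 1.65 CPM in WT at 65 days, 3.21 and 0.196 in WT at 80 days and 0 and 0.0131 in CFTR−/− at 80 days, where the latter is the value of 1 count.

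VIP, which encodes a neuropeptide, had 9.94 and 14.8 CPM in WT at 65 days, 3.21 and 4.47 in WT at 80 days, 2.08 and 2.81 in CFTR−/− at 65 days and 2.13 and 2.84 in CFTR−/− at 80 days. For VIP the log2 fold change in CFTR−/− at 80 days was -2.31 (SE 0.57) against WT at 65 days and -0.63 (SE 0.57) against WT at 80 days. LOC101119869 was at 17.5 and 17.2 CPM in WT at 65 days, 5.87 and 4.44 in WT at 80 days and 4.46 and 5.54 in CFTR−/− at 80 days (-1.79, SE 0.43). LOC105609393 had 70.5 and 86.0, 40.6 and 39.2, and 37.8 and 37.3 CPM (-1.06, SE 0.26). LOC106990830 had 3.67 and 4.17, 1.13 and 1.39, and 0.409 and 0.917 CPM. For these genes the CFTR−/− animals at 80 days sat near or below WT of their own age and away from WT at 65 days. CFTR−/− animals of 65 days were already as low or nearly so, at 5.50 and 3.64 CPM for LOC101119869, 32.7 and 37.3 for LOC105609393 and 0.990 and 0.685 for LOC106990830, so this low level was not particular to 80 days. LOC105615816 had 0.209 and 1.65 CPM in WT at 65 days and 0.0660 and 0.0524 in CFTR−/− at 80 days, and its log2 fold change of -3.91 (SE 1.11) was -1.78 without WT animal 2.

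The following genes, called by DESeq2 or the likelihood ratio test outside this rule, were chosen after their values were seen. LOC106990272 had 1.84 and 2.45 CPM in WT at 65 days, 1.13 and 4.82 in WT at 80 days and 0 counts in both CFTR−/− animals at 80 days. LOC105602321 had 0.810 and 0.850 CPM in WT at 65 days, 0.482 and 0.880 in WT at 80 days and 0 in all 4 early CFTR−/− libraries. Both loci were near or at 0 in every early CFTR−/− library.

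**Figure D3:**
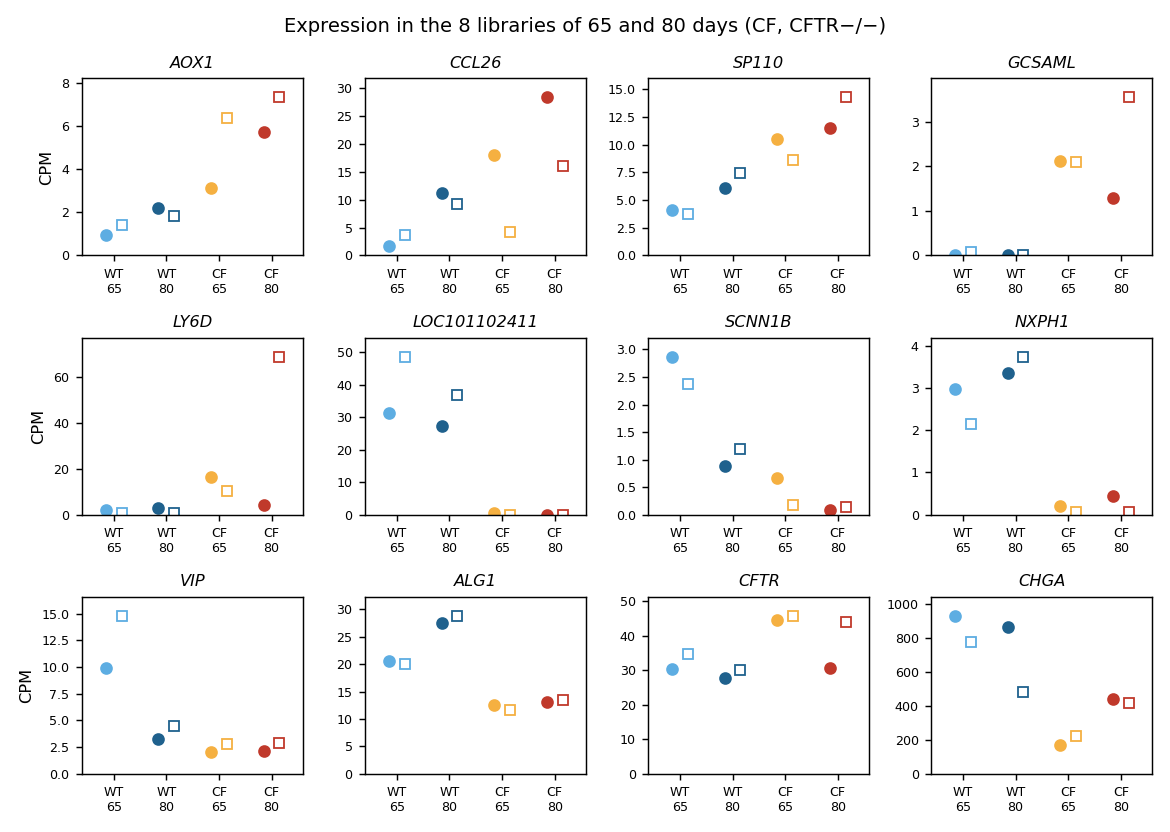
CPM (vertical axis, from 0) of 12 genes in the 8 libraries of 65 and 80 days, by genotype and age (horizontal axis), with a circle for animal 1 and a square for animal 2. AOX1 and SP110 were higher in both CFTR−/− animals at 80 days than in all 4 WT animals, and LOC101102411 had 0 counts in both.

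The same rule was applied to CFTR−/− against WT at 80 days, where edgeR's Benjamini-Hochberg adjusted p was 0.850 for GCSAML, TNNI1, LOC105602135, PARP3, LOC101102411, NXPH1 and ALG1 and 1 for the other genes named. Several of these genes were lowest in WT at 80 days. SYCP2L, of the synaptonemal complex family, had 3.879 and 3.595 CPM in WT at 65 days, 0.0827 and 0.0489 in WT at 80 days and 4.70 and 0.603 in CFTR−/− at 80 days. LOC105602836 had 1.20 and 1.58 CPM in WT at 65 days, 0 counts in WT at 80 days and 1.53 and 1.93 CPM in CFTR−/− at 80 days, at least 44.3-fold above WT at 80 days. PDZK1IP1, a small membrane protein, had 1.29 and 2.22, 0.413 and 0.183, and 1.19 and 10.4 CPM. LOC105605573 had 3.96 and 10.2, 1.01 and 0.660, and 12.6 and 9.37 CPM. In each of these 4 genes both WT animals of 80 days lay below every CFTR−/− animal of 80 days and every WT animal of 65 days. SYCP2L and LOC105602836 were called between the WT ages by DESeq2 and by the likelihood ratio test. Over WT at 100 days, the log2 fold change of CFTR−/− at 80 days was -2.71 (SE 0.73) for SYCP2L and 1.56 (SE 0.87) for LOC105602836. It was 1.23 (SE 0.83) for LOC105605573 and 3.58 (SE 1.04) for PDZK1IP1. In group means, the low level of WT at 80 days was thus not kept at 100 days, except in PDZK1IP1. It is not read as a trend with WT age.

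Others stood above WT of both ages or were uneven between animals. PARP3, a poly(ADP-ribose) polymerase, had 3.27 and 2.88 CPM in WT at 65 days, 1.65 and 1.10 in WT at 80 days and 8.33 and 3.76 in CFTR−/− at 80 days (log2 fold change over WT at 80 days 2.14, SE 0.46, and 1.44 without CFTR−/− animal 1). TNNI1, a troponin of slow muscle fibres, had 8.65 and 6.35, 3.16 and 2.15, and 5.06 and 43.0 CPM, and its log2 fold change over WT at 80 days of 3.18 (SE 0.69) was 0.94 without CFTR−/− animal 2. LOC105602135 had 3.44 and 0.105, 0.0827 and 0.135, and 4.14 and 3.12 CPM (5.02, SE 1.11). Only PARP3 of these 3 had both CFTR−/− animals above both WT animals of 65 days.

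On the lower side, ALG1, a mannosyltransferase that builds N-glycan precursors in the endoplasmic reticulum, had 20.58 and 20.04 CPM in WT at 65 days, 27.5 and 28.9 in WT at 80 days, 12.5 and 11.6 in CFTR−/− at 65 days and 13.0 and 13.4 in CFTR−/− at 80 days. The log2 fold change of ALG1 was -1.09 (SE 0.23) against WT at 80 days and -0.62 (SE 0.23) against WT at 65 days. STPG1 had 1.461 and 1.399, 1.10 and 1.58, 0.0619 and 0.262, and 0.0924 and 0.301 CPM in the same order. Both genes separated every early CFTR−/− library from every early WT library. Of the genes higher in CFTR−/−, LY6D and LOC101114941 have been given above. The other genes of the rule were CA5A, LOC105607091, LOC105609042, LOC105605981, LOC105610244 and LOC105608134, all higher in WT at 80 days than in CFTR−/− at 80 days. LOC105609042 had 7.43 and 13.8 CPM in WT at 80 days, 2.65 and 1.14 in CFTR−/− at 80 days and 1.853 and 1.595 in WT at 65 days. LOC105608134 had 0 counts in all 4 early CFTR−/− libraries, and 0.234 and 0.428 CPM in WT at 80 days.

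Lists of genes with a common role were described by counts and medians, without a test of the list. In each list below 0 genes were called by edgeR's quasi-likelihood test in either comparison. Medians are of the log2 fold change of CFTR−/− at 80 days over WT at 65 days and then over WT at 80 days, beside 0.01 and 0.005 over all genes. In bulk tissue, fewer cells of a type cannot be told apart from less RNA per cell.

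Acinar enzyme genes, whose products digest food, were somewhat higher than in WT at 65 days and somewhat lower than in WT at 80 days. Of 18 tested, 11 were higher and 7 lower than in WT at 65 days, with medians of 0.32 and -0.09. Groups did not overlap for 6 higher and 1 lower, against 15.9% and 15.6% of all genes. The list summed to 24290 and 23080 CPM in WT at 65 days, 31200 and 30950 in WT at 80 days, 13700 and 10420 in CFTR−/− at 65 days and 31210 and 20070 in CFTR−/− at 80 days. CFTR−/− animal 1 thus matched WT at 80 days in this sum, and animal 2 was below WT at 65 days. CPA1, a carboxypeptidase, took the most reads. CEL, the bile salt lipase, had 4095 and 3040 CPM in WT at 65 days, 5966 and 6074 in WT at 80 days and 5729 and 4007 in CFTR−/− at 80 days (log2 fold change over WT at 65 days 0.45, SE 0.92, and 0.15 without CFTR−/− animal 1). PLA2G1B, a secreted phospholipase, had 183 and 248, 476 and 327, and 337 and 454 CPM (0.88, SE 0.67). PRSS2, a trypsinogen with near-identical copies that makes its count uncertain, had 1157 and 1092, 1670 and 1528, and 1137 and 569 CPM (-0.40, SE 0.80, and 0.02 without CFTR−/− animal 2). Of the regulators of acinar cells 3 were tested and all were higher, with medians of 0.44 and -0.11. NR5A2 was at 52.8 and 48.6 CPM in WT at 65 days, 57.8 and 70.7 in WT at 80 days and 68.1 and 69.9 in CFTR−/− at 80 days, so its CFTR−/− animals were within the WT range of 80 days. PTF1A, BHLHA15 and RBPJL were not analysed here.

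Regulators of pancreatic progenitors differed little between groups, with 8 of 13 higher and medians of 0.20 and -0.05. SOX9 had 92.8 and 81.5 CPM in WT at 65 days, 82.7 and 88.2 in WT at 80 days and 98.1 and 109 in CFTR−/− at 80 days, above each early WT animal (log2 fold change over WT at 65 days 0.25, SE 0.38). ONECUT2 had 2.95 and 3.16, 1.75 and 2.85, and 1.21 and 1.23 CPM (-1.32, SE 0.72), so both CFTR−/− animals of 80 days were below each early WT animal. In CFTR−/− at 65 days ONECUT2 was uneven, at 0.928 and 5.83 CPM.

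Endocrine genes were mostly lower in CFTR−/− at 80 days than in WT of either age. Of 24 tested hormone and granule genes 21 were lower than in WT at 65 days and 16 lower than in WT at 80 days, with medians of -0.33 in both comparisons. Groups did not overlap for 8 lower and 1 higher in the former, against 15.6% and 15.9% of all genes. Their summed CPM was 13410 and 8774 in WT at 65 days, 14920 and 10980 in WT at 80 days, 2189 and 3684 in CFTR−/− at 65 days and 11510 and 8260 in CFTR−/− at 80 days, with the most reads from glucagon (GCG). The sums of CFTR−/− at 80 days overlapped those of both WT ages. CHGA, the granule protein chromogranin A, had 932 and 774 CPM in WT at 65 days, 863 and 483 in WT at 80 days, 168 and 222 in CFTR−/− at 65 days and 443 and 416 in CFTR−/− at 80 days. The log2 fold change of CHGA over WT at 65 days was -0.99 (SE 0.57), and it was lower in both CFTR−/− animals than in each early WT animal. GCG had 8712 and 4081, 9748 and 7345, 1256 and 2164, and 7087 and 4273 CPM in the same order. For GCG the log2 fold change over WT at 65 days was -0.17 (SE 0.84), and the sign turned without CFTR−/− animal 2, to 0.16, or without WT animal 1, to 0.47. TTR, a carrier of thyroid hormone made in islets, was an exception against WT at 65 days, at 698 and 387 CPM there and 1346 and 712 in CFTR−/− at 80 days. In WT at 80 days TTR had 1053 and 668.5 CPM, which overlapped CFTR−/− of that age. IAPP had 0 counts in all 8 early libraries, and INS was not analysed here.

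Of 14 endocrine transcription factors 11 were lower than in WT at 65 days, 4 of them without overlap (15.6% of all genes), with medians of -0.19 and -0.23. PAX4, which directs beta and delta cell fate, had 25.1 and 24.1 CPM in WT at 65 days, 12.8 and 17.1 in WT at 80 days and 18.9 and 6.57 in CFTR−/− at 80 days (log2 fold change over WT at 65 days -0.95, SE 0.74, and -0.37 without CFTR−/− animal 2). NEUROG3, which marks endocrine precursors, had 9.97 and 13.4, 4.96 and 4.90, and 7.89 and 8.81 CPM. The CFTR−/− animals at 80 days were between the WT ages for NEUROG3, without overlap with either. INSM1, which took the most reads of this list, had 79.7 and 63.8 CPM in WT at 65 days and 87.1 and 46.4 in CFTR−/− at 80 days, on both sides of WT.

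Duct and epithelial genes were somewhat higher in CFTR−/−, with 14 of 21 higher than in WT at 65 days (9 without overlap, against 15.9% of all genes) and medians of 0.24 and 0.37. The list summed to 1608 and 1675 CPM in WT at 65 days, 1677 and 1562 in WT at 80 days, 2201 and 1699 in CFTR−/− at 65 days and 1640 and 2755 in CFTR−/− at 80 days, with the most reads from KRT8, and only CFTR−/− animal 2 of the 80-day animals stood above WT. ELF3, an epithelial transcription factor, had 9.73 and 13.1 CPM in WT at 65 days, 14.4 and 12.5 in WT at 80 days and 18.2 and 39.3 in CFTR−/− at 80 days (log2 fold change over WT at 65 days 1.33, SE 0.41, and 0.68 without CFTR−/− animal 2). CLDN4, a tight junction protein, had 45.9 and 44.8, 49.6 and 58.9, and 66.9 and 87.1 CPM (0.76, SE 0.30). Both genes were higher in each CFTR−/− animal at 80 days than in each early WT animal. KRT7 had 65.4 and 64.4, 150 and 51.2, and 65.8 and 222 CPM (1.15, SE 0.54, and 0.03 without CFTR−/− animal 2).

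Stromal matrix genes separated the WT ages, and the CFTR−/− animals lay on either side. Of 32 genes 15 were higher and 17 lower than in WT at 65 days (median -0.03), while 30 were higher than in WT at 80 days (median 0.36), 5 of these without overlap, a share close to the 15.1% of all genes. Summed CPM was 10800 and 12560 in WT at 65 days, 6899 and 7671 in WT at 80 days, 19870 and 21280 in CFTR−/− at 65 days and 6738 and 12920 in CFTR−/− at 80 days. CFTR−/− animal 1 at 80 days was thus at the level of WT at 80 days and animal 2 above WT at 65 days. COL3A1, a fibrillar collagen with the most reads of the list, had 3446 and 4108 CPM in WT at 65 days, 2146 and 2375 in WT at 80 days and 1914 and 3786 in CFTR−/− at 80 days. MATN2, a matrilin, had 49.4 and 64.4, 24.3 and 32.5, and 25.0 and 45.6 CPM (log2 fold change over WT at 65 days -0.69, SE 0.34, and -0.34 or -1.18 without CFTR−/− animal 1 or 2). NID2, a basement membrane nidogen, had 42.5 and 43.9, 42.0 and 45.0, and 50.3 and 60.5 CPM (0.36, SE 0.26, and 0.22 without CFTR−/− animal 2). For NID2 both CFTR−/− animals were above all early WT animals, and for MATN2 both were below WT at 65 days.

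Contractile genes of stellate and smooth muscle cells were higher than in WT at 65 days in 16 of 16 genes (median 0.52, 4 without overlap against 15.9% of all genes) and than in WT at 80 days in 14 of 16 (median 0.81, 8 without overlap against 15.1%). They summed to 842 and 792 CPM in WT at 65 days, 717 and 734 in WT at 80 days, 1556 and 1476 in CFTR−/− at 65 days and 843 and 1252 in CFTR−/− at 80 days, with the most reads from TPM1. In this sum CFTR−/− animal 1 was level with WT animal 1 of 65 days and above WT animal 2 of that age and both WT animals of 80 days. CFTR−/− animal 2 was above every early WT animal. ACTA2, alpha smooth muscle actin, had 44.6 and 43.0 CPM in WT at 65 days, 42.6 and 46.7 in WT at 80 days and 57.8 and 128 in CFTR−/− at 80 days (log2 fold change over WT at 65 days 1.08, SE 0.81, and 0.41 without CFTR−/− animal 2). MYL9, a myosin light chain, had 49.6 and 42.4, 47.6 and 45.2, and 54.7 and 98.5 CPM (0.74, SE 0.26, and 0.26 without that animal). Both were higher in each CFTR−/− animal, far more in animal 2.

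Endothelial genes were higher than in WT at 65 days in 13 of 13 genes, 12 of them without overlap against 15.9% of all genes (median 0.48), and than in WT at 80 days in 12 of 13, 8 without overlap against 15.1% (median 0.31). Summed CPM was 369 and 408 in WT at 65 days, 428 and 403 in WT at 80 days, 798 and 679 in CFTR−/− at 65 days and 496 and 572 in CFTR−/− at 80 days, and PLVAP took the most reads. ROBO4, an endothelial guidance receptor, had 18.2 and 19.4 CPM in WT at 65 days, 26.2 and 20.8 in WT at 80 days and 32.4 and 31.1 in CFTR−/− at 80 days (log2 fold change over WT at 65 days 0.76, SE 0.35). ESAM, an adhesion molecule of endothelial junctions, had 15.6 and 18.9, 14.6 and 18.1, and 22.2 and 26.9 CPM (0.51, SE 0.24). In sum and in both genes, CFTR−/− animals at 80 days lay above WT of either age, and the 2 animals were closer to each other than in the stromal and contractile lists.

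Genes of the nerves were mostly lower. Of 16 Schwann cell genes 13 were lower than in WT at 65 days, 7 without overlap (15.6% of all genes), with medians of -0.32 and -0.18, and sums of 168 and 176 CPM in WT at 65 days and 168 and 157 in CFTR−/− at 80 days, against 292 and 376 in CFTR−/− at 65 days. The sums in WT at 80 days were 153 and 187 CPM, and ERBB3, which epithelium also expresses, took the most reads. GFRA1, a receptor for glial cell line derived factor, had 16.0 and 17.6 CPM in WT at 65 days, 11.6 and 10.8 in WT at 80 days and 6.22 and 9.83 in CFTR−/− at 80 days (log2 fold change over WT at 65 days -1.07, SE 0.46). S100B, in contrast, had 15.9 and 15.9, 13.4 and 16.3, and 21.1 and 22.6 CPM (0.46, SE 0.31). Of 10 neuronal genes 7 were lower, 5 without overlap (15.6% of all genes), with medians of -0.77 and -0.37. They summed to 126 and 116 CPM in WT at 65 days, 112 and 103 in WT at 80 days and 106 and 98.8 in CFTR−/− at 80 days, with the most reads from RET. PRPH, a neuronal filament, had 16.5 and 23.2 CPM in WT at 65 days, 6.59 and 12.1 in WT at 80 days and 8.45 and 8.60 in CFTR−/− at 80 days, within the range of WT at 80 days.

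Markers of blood, liver and other tissues were checked as signs of other cells in the samples. Of 18 hepatocyte genes 16 were lower than in WT at 65 days, 5 without overlap (15.6% of all genes), with medians of -1.45 and -0.49, and sums of 2044 and 1578 CPM in WT at 65 days, 1296 and 1027 in WT at 80 days, 2537 and 7727 in CFTR−/− at 65 days and 1152 and 5354 in CFTR−/− at 80 days. ALB, the defining albumin gene, was at 109 and 3.48 CPM in WT at 65 days, 3.64 and 1.97 in WT at 80 days, 1.15 and 1288 in CFTR−/− at 65 days and 3.06 and 1.26 in CFTR−/− at 80 days. It was thus high in CFTR−/− animal 2 at 65 days and WT animal 1 at 65 days, and low in both CFTR−/− animals at 80 days. Other members were likewise uneven in WT at 65 days, where SERPINA1, a protease inhibitor of plasma, had 90.7 and 7.39 CPM and AHSG, fetuin A, 162 and 9.79, against 20.2 and 18.1 and 11.3 and 8.41 in CFTR−/− at 80 days. In these genes WT animal 1 was far above both CFTR−/− animals and WT animal 2 was not, so the median over WT at 65 days rested in part on WT animal 1. APOA1, which took the most reads, had 817 and 929, 365 and 350, 2270 and 1489, and 519 and 4799 CPM in the same order. Its log2 fold change over WT at 65 days was 1.61 (SE 0.78) and -0.74 without CFTR−/− animal 2, which therefore was high in APOA1 without being high in ALB. PLG, plasminogen, had 3.01 and 0.562 CPM in WT at 65 days and 0.0792 and 0 in CFTR−/− at 80 days.

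Of 10 erythroid genes 9 were higher than in WT at 65 days, with medians of 1.46 and 0.96, from sums of 19.5 and 15.7 CPM in WT at 65 days, 17.6 and 14.5 in WT at 80 days, 12.5 and 311 in CFTR−/− at 65 days and 14.0 and 45.2 in CFTR−/− at 80 days, with the most reads from AHSP. Of 13 lymphoid genes 11 were higher, with medians of 0.84 and -0.02 and sums of 23.7 and 34.9 CPM in WT at 65 days, 88.7 and 25.8 in WT at 80 days, 53.5 and 33.6 in CFTR−/− at 65 days and 25.8 and 71.4 in CFTR−/− at 80 days. Both lists were higher in CFTR−/− animal 2 at 80 days than in animal 1. MS4A1, the B cell antigen CD20, had 0.675 and 1.11 CPM in WT at 65 days, 5.55 and 1.77 in WT at 80 days and 2.14 and 5.06 in CFTR−/− at 80 days (log2 fold change over WT at 65 days 2.01, SE 0.86, and 1.27 without CFTR−/− animal 2), and LCK took the most reads of its list. Of 15 myeloid genes 10 were higher (medians 0.15 and 0.50), with sums of 98.5 and 122 CPM in WT at 65 days, 115 and 77.5 in WT at 80 days, and 81.7 and 162 in CFTR−/− at 80 days. CD68 took the most reads over the early libraries, at 18.0 and 16.3 CPM in CFTR−/− at 80 days, while C1QB, a complement subunit of macrophages, had 9.32 and 26.5 CPM there.

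Adipocyte genes were low throughout, summing to 4.03 and 3.27 CPM in WT at 65 days, 6.05 and 4.65 in WT at 80 days, and 5.82 and 9.02 in CFTR−/− at 80 days, with the most reads from PPARG. Of 10 genes 7 were higher than in WT at 65 days, and the medians of 1.26 and 1.07 became 1.13 and 0.82 with genes that had 0 counts in a whole group set to their bound. FABP4 had 0 counts in WT at 65 days and 0.924 and 1.94 CPM in CFTR−/− at 80 days, at least 37.7-fold higher, or at least 24.3-fold without CFTR−/− animal 2. Of 10 intestinal epithelium genes 5 were higher (medians 0.13 and 1.10, the latter 0.55 at the bounds), with sums of 128 and 120 CPM in WT at 65 days, 121 and 130 in WT at 80 days and 125 and 109 in CFTR−/− at 80 days. VIL1, which acinar cells share, took the most reads of it, and ISX had 0 counts in all early libraries. CDX2 had 5.95 and 7.53 CPM in WT at 65 days, 1.98 and 2.79 in WT at 80 days and 3.52 and 13.6 in CFTR−/− at 80 days. Of 7 mesothelial genes 4 were lower (medians -0.41 and -0.51), with sums of 7.86 and 8.09 CPM in WT at 65 days, 5.92 and 5.39 in WT at 80 days and 2.96 and 15.2 in CFTR−/− at 80 days, WT1 with the most reads.

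Across these lists CFTR−/− animal 2 at 80 days had higher sums of stromal, contractile, endothelial, myeloid, lymphoid, erythroid, adipocyte, mesothelial and duct or epithelial markers and lower sums of acinar and endocrine genes than animal 1. The hepatocyte sum was also higher, through APOA1, while ALB was not. Its lower age score and its nearness to WT at 65 days moved with these markers, and their part in either was not tested. The score and these sums share genes, so their agreement was in part set by construction. Genes that rise in the score include CEL, CELA1 and PRSS2, and those that fall include COL12A1, MATN2 and KRT7. CHGA, an endocrine gene, is also among those that fall, where a lower level raises the score.

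**Figure D4:**
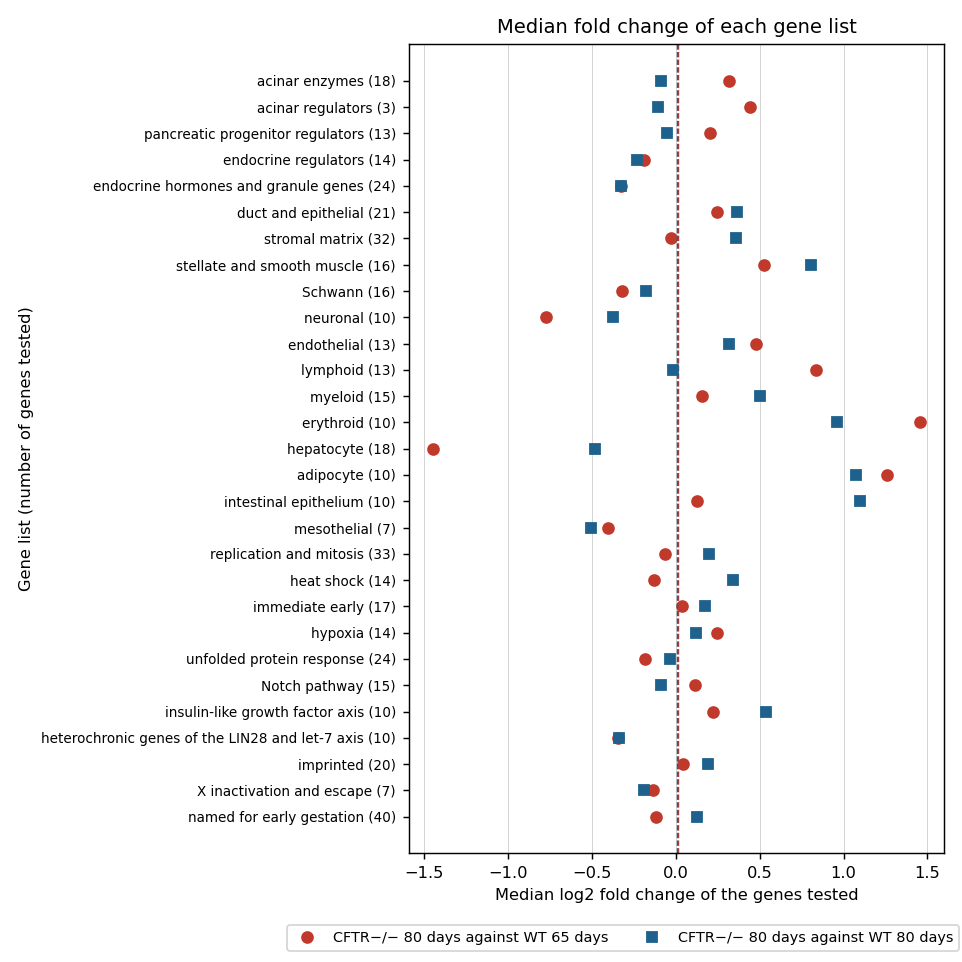
Median fitted log2 fold change (horizontal axis) of each gene list (vertical axis, with the number of genes tested) in CFTR−/− at 80 days over WT at 65 days (circles) and over WT at 80 days (squares), with dashed lines for the medians of all genes. Contractile and endothelial lists sat to the right in both comparisons, at 0.52 and 0.48 over WT at 65 days, and stromal matrix at -0.03 and 0.36.

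Genes of DNA replication and mitosis, whose levels follow how many cells divide, had 21 of 33 lower than in WT at 65 days (median -0.07) and 28 of 33 higher than in WT at 80 days (median 0.20, 10 without overlap against 15.1% of all genes). CENPA, a centromeric histone, had 36.4 and 44.9 CPM in WT at 65 days, 28.6 and 27.1 in WT at 80 days and 27.5 and 35.0 in CFTR−/− at 80 days, where animal 1 lay with WT at 80 days and animal 2 between the ages. The list summed to 1157 and 1328, 1095 and 1007, and 1043 and 1304 CPM in the same groups, so that CFTR−/− animal 1 was within the range of WT at 80 days and animal 2 within that of WT at 65 days.

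Heat shock genes, which guard protein folding, were nearer WT at 65 days in their sum, at 3026 and 3056 CPM in WT at 65 days, 2144 and 2216 in WT at 80 days, 2021 and 2135 in CFTR−/− at 65 days and 3222 and 3142 in CFTR−/− at 80 days. Of 14 genes 10 were lower than in WT at 65 days (median -0.13), with 6 lower and 2 higher without overlap against 15.6% and 15.9% of all genes, and 11 were higher than in WT at 80 days (median 0.34), 10 of these without overlap against 15.1% of all genes. HSPA1A, an inducible HSP70 with near-identical copies, had 722 and 580 CPM in WT at 65 days, 274 and 424 in WT at 80 days, 137 and 166 in CFTR−/− at 65 days and 1027 and 874 in CFTR−/− at 80 days, highest in the latter. HSPA6 had 25.6 and 22.0, 3.29 and 2.37, 0.607 and 1.04, and 9.48 and 9.75 CPM in the same order, and both CFTR−/− animals at 80 days lay between the WT ages (log2 fold change over WT at 65 days -1.31, SE 0.60, and over WT at 80 days 1.77, SE 0.64).

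Of 24 unfolded protein response genes 18 were lower than in WT at 65 days, 11 without overlap against 15.6% of all genes, with medians of -0.19 and -0.04 and sums of 5254 and 5499 CPM in WT at 65 days, 4621 and 4402 in WT at 80 days and 4722 and 4338 in CFTR−/− at 80 days, close to WT of the same age. CREB3L3, a membrane-bound transcription factor, went the other way, at 6.59 and 6.39 CPM in WT at 65 days, 8.21 and 17.9 in WT at 80 days and 20.9 and 15.2 in CFTR−/− at 80 days (log2 fold change over WT at 65 days 1.48, SE 0.64). Immediate early genes had medians of 0.04 and 0.17, with 10 of 17 higher, and hypoxia genes medians of 0.24 and 0.12, with 10 of 14 higher. ANKRD37, a hypoxia-induced gene, had 1.34 and 0.889 CPM in WT at 65 days, 1.78 and 2.29 in WT at 80 days and 2.65 and 3.49 in CFTR−/− at 80 days, above all early WT animals.

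Notch pathway genes, which hold progenitors back from endocrine fate, had 8 of 15 higher and medians of 0.12 and -0.09. HES6, which counters that signal, had 25.6 and 20.9 CPM in WT at 65 days, 17.0 and 10.4 in WT at 80 days and 14.3 and 13.6 in CFTR−/− at 80 days (log2 fold change over WT at 65 days -0.74, SE 0.42), within the range of WT at 80 days. DLL4, an endothelial Notch ligand, had 8.48 and 9.07, 9.62 and 10.6, and 11.0 and 17.5 CPM (0.70, SE 0.41, and 0.33 without CFTR−/− animal 2), above all early WT animals. In the insulin-like growth factor axis 8 of 10 genes were higher than in WT at 65 days and 9 of 10 than in WT at 80 days (medians 0.22 and 0.54). IGFBP5, a binding protein of these growth factors, had 167 and 193 CPM in WT at 65 days, 247 and 236 in WT at 80 days and 269 and 205 in CFTR−/− at 80 days (0.40, SE 0.28, and 0.17 without CFTR−/− animal 1), where the CFTR−/− animals were above WT at 65 days and on both sides of WT at 80 days.

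Genes of the LIN28 and let-7 axis take part in the timing of development in many tissues. Of 10 tested, 6 were lower than in WT at 65 days and 10 of 10 lower than in WT at 80 days, with medians of -0.34 in both comparisons. IGF2BP3, an RNA-binding protein of fetal tissue with the most reads of the list, had 26.3 and 29.2 CPM in WT at 65 days, 26.1 and 27.9 in WT at 80 days, 21.2 and 21.9 in CFTR−/− at 65 days and 23.2 and 18.7 in CFTR−/− at 80 days. Each early CFTR−/− animal was below each early WT animal, and the log2 fold change over WT at 65 days was -0.40 (SE 0.27), and -0.25 without CFTR−/− animal 2. The summed CPM was 50.3 and 60.8 in WT at 65 days, 49.4 and 59.9 in WT at 80 days and 50.7 and 39.8 in CFTR−/− at 80 days.

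Imprinted genes, which are expressed from the copy of 1 parent, had medians of 0.04 and 0.19 with 11 of 20 higher than in WT at 65 days. PHLDA2, a maternally expressed growth restrictor, had 1.56 and 2.48 CPM in WT at 65 days, 0.964 and 0.709 in WT at 80 days, 11.0 and 13.7 in CFTR−/− at 65 days and 1.48 and 28.6 in CFTR−/− at 80 days. Its log2 fold change over WT at 65 days was 2.90 (SE 1.03) and -0.44 without CFTR−/− animal 2, so it rested on that animal. CDKN1C, a cell cycle inhibitor, had 111 and 91.9, 109 and 94.3, 167 and 89.0, and 83.4 and 40.4 CPM in the same order, lowest in CFTR−/− at 80 days. Of 7 genes of the list of X inactivation and escape 6 were lower than in WT at 65 days (medians -0.14 and -0.19). DDX3X, an RNA helicase with the most reads among them, had 153 and 152 CPM in WT at 65 days, 160 and 158 in WT at 80 days and 143 and 135 in CFTR−/− at 80 days (-0.14, SE 0.21), a difference smaller than its SE. Sex and genotype cannot be told apart in this list, since the sex of the WT animals was not given.

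Genes that the study itself named for early gestation were taken as a last list, which was chosen on these samples and is no independent evidence. Of 40 tested, 18 were higher and 22 lower than in WT at 65 days, with medians of -0.12 and 0.13, and 8 and 9 of them without overlap, against 15.9% and 15.6% of all genes. DKK2, a secreted inhibitor of Wnt signalling, had 0.552 and 0.562 CPM in WT at 65 days, 0.964 and 1.04 in WT at 80 days, 7.23 and 6.13 in CFTR−/− at 65 days and 1.37 and 1.97 in CFTR−/− at 80 days. Its log2 fold change at 80 days over WT at 65 days was 1.58 (SE 0.79). FGL1, a secreted fibrinogen-like protein, had 0.0246 and 0.0523, 0.992 and 1.55, 6.49 and 3.17, and 0.568 and 1.68 CPM in the same order. For both genes the CFTR−/− animals at 65 days were highest, and at 80 days FGL1 in CFTR−/− overlapped WT of that age while DKK2 was above it. FN1, fibronectin, had 53.1 and 82.3 CPM in WT at 65 days, 40.0 and 40.9 in WT at 80 days, 236 and 253 in CFTR−/− at 65 days and 34.7 and 56.0 in CFTR−/− at 80 days, where the groups of 80 days overlapped. Between the genotypes at 65 days, 19 of the list were higher and 12 lower in CFTR−/− at an unadjusted p under 0.05 (edgeR's quasi-likelihood test). Of those lower, KCNK16, a potassium channel, had 148 and 144, 128 and 92.5, 15.7 and 28.1, and 121 and 89.2 CPM in the same order. Its groups of 80 days overlapped.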

How the data were processed

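Per gene, the authors deposited whole-number counts, made from paired-end reads of directional, oligo dT primed libraries aligned to Oar_v4.0. The submitters' processing notes name STAR 2.6 and featureCounts 1.6.3, and whether reads were counted by strand was not given in the sources used here. Locus numbers stand for 8432 of the 24478 genes. The RefSeq table of assembly ARS-UI_Ramb_v3.0, used for names only, gave 501 of them a symbol. Counts of all 20 libraries were fitted in edgeR 4.0.16 (R 4.3.3) as 10 groups with TMM, filterByExpr (minimum count 10, minimum total 15), glmQLFit and glmQLFTest, which kept 19522 genes. The fit was tested on simulated counts, and no outcome of that test is reported here. A call needed a Benjamini-Hochberg adjusted p no higher than 0.01 and a log2 fold change of 0.58 or more in either direction. The SE of a log2 fold change is its size over the root of F. Named genes were the 10 per direction and comparison with the smallest p whose groups did not overlap, the genes the study names for early gestation, and in each of the other lists up to 4 members with the smallest p and 3 with the highest CPM. Some genes that meet these rules are not reported here. The 29 lists, of cell types and processes, and the members compared were chosen with earlier results of these data known. Alternatives were DESeq2 1.42.0 (size factors and Wald test), the likelihood ratio test, no filter on low counts, other thresholds, fits of 4 or 8 libraries, a replicate block, other prior counts and gene sets for distances and scores, and each animal left out.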

Additional observations from a re-analysis of the deposited data

How the results depend on the processing

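For CFTR−/− at 80 days against WT at 65 days, counts of called genes stayed at 0 in edgeR's quasi-likelihood test with DESeq2 size factors, no filter, an adjusted p of 0.05, 8 or 4 libraries in the fit, the legacy fit, 2 libraries that stand apart left out, and each animal left out. Counts are given below in the order CFTR−/− 80 days against WT 65 days, CFTR−/− 80 against WT 80, WT 80 against WT 65, CFTR−/− 65 against WT 65, CFTR−/− 80 against CFTR−/− 65, CFTR−/− 65 against WT 80, CFTR−/− 80 against WT 100, and the interaction. DESeq2's Wald test called 6, 7, 2, 43, 4, 69, 25 and 3 genes, the likelihood ratio test 3, 4, 2, 8, 0, 6, 6 and 2, and an unadjusted p of at most 0.01 gave 112, 111, 72, 597, 305, 830, 298 and 93. With only the 8 early libraries the calls were 0, 0, 0, 1, 1 and 2 in the comparisons up to CFTR−/− 65 against WT 80, and 1 in the interaction. With only the 4 libraries compared they were 0, 0, 5, 123, 0, 88 and 1. CFTR−/− 80 against WT 100 was not part of the 8-library fit, and the interaction was not part of the 4-library fits. The legacy fit and the fit without CFTR−/− animal 2 at 100 days and WT animal 2 at 120 days were chosen after seeing the data, and the latter called 0, 0, 0, 0, 1, 13, 0 and 0 genes. Leaving out 1 animal at a time gave 0 to 1 calls for CFTR−/− 65 against WT 65, 0 to 7 for CFTR−/− 80 against CFTR−/− 65, 0 to 9 for CFTR−/− 65 against WT 80 and 0 to 1 for CFTR−/− 80 against WT 100, where a lone animal is assumed to vary like the other groups. All of these calls came without CFTR−/− animal 1 at 65 days, except the call against WT 100, which came without CFTR−/− animal 1 at 80 days. The cause was not tested.

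The replicate numbers do not pair animals between groups, and the correlation of deviations between same-numbered animals was 0.121 for CFTR−/− at 80 days and WT at 65 days, -0.249 with WT at 80 days and -0.129 with CFTR−/− at 65 days, each over 2 pairs. With the replicate number as a block, the quasi-likelihood test gave 0 calls in each comparison, with 463 for CFTR−/− at 80 days against WT at 65 days at an unadjusted p under 0.05. With the numbers of CFTR−/− at 80 days crossed, a choice made after seeing the data, there were 0 calls against WT at 80 days and 0 against CFTR−/− at 65 days, with 455 and 1073 genes at an unadjusted p under 0.05.

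The median distance of 0.939 to WT at 65 days was 1.25 with a prior count of 0.5, 0.764 with 5, 2.13 over the 500 most variable genes and 0.337 as a median absolute difference. The corresponding distances to WT at 80 days, a choice made after seeing the data, were 1.34, 0.814, 2.33 and 0.328, so that by the median absolute difference WT at 80 days was the nearer. Without 1 of the 4 animals the distance to WT at 65 days was 0.904 to 0.971, and that to WT at 80 days 0.871 to 1.05, and WT at 80 days was also the nearer without CFTR−/− animal 2 or without WT animal 1 of 80 days. The mean age score of CFTR−/− at 80 days was 0.25 to 0.31 under the alternatives, and 0.14 or 0.40 with 1 animal. With genes chosen on WT at 65 and 100 days only, CFTR−/− animal 2 at 80 days scored 0.05, and CFTR−/− animals at 65 days turned to -0.09 and -0.12. The share of genes nearer WT at 65 days was 39.2% to 58.7% without 1 animal, and 31.9% to 55.6% over the 72 genes.

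Most named genes, though not all, were run again under each alternative. Since 0 of them passed the threshold in the quasi-likelihood test, staying below it shows no stability, and values that kept their sign could still move far, as in KRT7 from 1.15 to 0.03 without CFTR−/− animal 2. The threshold was passed by 13 values, only by DESeq2 or the likelihood ratio test, and 6 changed sign with 1 animal left out. The latter lay in CFTR (-0.078 to 0.424), PRSS2 (-0.997 to 0.022), GCG (-0.615 to 0.471), APOA1 (-0.74 to 2.45) and PHLDA2 (-0.44 to 3.81), given as the lowest and highest log2 fold change over WT at 65 days. CFTR−/− animal 2 at 80 days was the animal left out in 5 of the 6, and WT animal 1 in the other, in GCG.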
